A study of Mus musculus with 12 samples.

Results

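Hyaluronan is a long unsulfated glycosaminoglycan that cells spin out through the plasma membrane by hyaluronan synthases. In matrix it is held on cells by receptors such as CD44 and tied into aggregates by link proteins and large proteoglycans such as versican. It is cut down by hyaluronidases and by the hyaluronan-depolymerizing protein CEMIP. In bone, osteoblasts lay hyaluronan into the young matrix, and CD44 is found on osteocytes. The 9 genes described here cover these roles: the synthases Has1, Has2 and Has3, the binding proteins Hapln1, Vcan and Cd44, and the breakdown genes Hyal1, Hyal2 and Cemip. They were picked by gene symbol from the 56691 entries of the deposited count table, and all 9 were found. Of the 9 genes, 7 had enough counts for the genome-wide test, which covered 14394 genes. Has1 and Has3 did not and are described by their counts.

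The cells were MC3T3-E1, a wild-type pre-osteoblast line from mouse calvarial bone. There were 4 groups of 3 libraries: 100 µM 25-hydroxyvitamin D (written 25(OH)D, the form of vitamin D that circulates in blood) with 100 µM ZK191784, 100 µM 25(OH)D with a further 4 mM beta-glycerophosphate (BGP, a phosphate donor), 100 µM 25(OH)D alone, and an untreated control. The unit of the 25(OH)D dose is as labelled and could not be checked. All groups, controls included, had been differentiated for 28 days in medium with 10 mM BGP, 50 µg/ml ascorbic acid and 0.1 µM of the glucocorticoid dexamethasone, and treatment ran from day 27 for 24 h. ZK191784 is named only by its code in the labels. Neither it nor the added BGP was given without 25(OH)D. The subclone of the line is not given, and nothing in the labels says that the 3 libraries of a group came from separate cultures, so every p-value speaks of the spread among libraries, which may be technical.

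Each library held between 3318723 and 5170980 counts of reads from transcript 3′ ends. Levels are CPM, counts scaled to a common library total after TMM normalization. They are compared between groups within a gene and not between genes. All 10 osteoblast markers checked had counts in each group. Libraries of the same group also differed in 1 common direction that cut across the groups. It is measured here by the log2 ratio of the counts of ribosomal protein genes to those of pseudogenes and Gm-numbered genes, called the library ratio below. It ran from −1.51 to −0.75 with ZK191784, from −1.58 to −0.41 with BGP, from −1.67 to −0.41 with 25(OH)D and from −1.70 to −0.55 in control. The ranges of the groups overlapped, and control library 3 stood apart from the other 2 of its group.

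The stretches before the transcript starts are shown for the 4 genes outside the synthases whose levels changed with 25(OH)D, because 3 fell and 1 rose. RefSeq's GRCm38.p6 table held such a stretch for 7 of the 9 genes, and each sequence below is the 250 bases before the annotated start, 5′ to 3′ on the gene's strand. Has2 and Has3 had none in the table. The counts were made on another build, mm39, so these coordinates apply to GRCm38.p6 only. Capitals mark letters of TATAAA, the TATA box, and of 4 half-sites of the vitamin D receptor and related nuclear receptors, each searched on both strands. The first half-site was AGGTCA. The next was AGTTCA. The others were GGGTCA and also GGTTCA.
Hapln1, chr13:89540386-89540635, plus strand: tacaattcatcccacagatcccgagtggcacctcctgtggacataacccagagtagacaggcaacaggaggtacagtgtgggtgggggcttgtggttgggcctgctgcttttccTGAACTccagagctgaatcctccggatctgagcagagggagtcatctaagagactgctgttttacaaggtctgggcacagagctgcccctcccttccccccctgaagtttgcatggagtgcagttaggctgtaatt
Vcan, chr13:89742513-89742762, minus strand: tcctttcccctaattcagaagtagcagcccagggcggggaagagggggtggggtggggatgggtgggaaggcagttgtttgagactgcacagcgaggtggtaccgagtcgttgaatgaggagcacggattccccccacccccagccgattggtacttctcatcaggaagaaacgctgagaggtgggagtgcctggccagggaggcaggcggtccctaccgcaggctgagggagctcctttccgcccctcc
Cd44, chr2:102901666-102901915, minus strand: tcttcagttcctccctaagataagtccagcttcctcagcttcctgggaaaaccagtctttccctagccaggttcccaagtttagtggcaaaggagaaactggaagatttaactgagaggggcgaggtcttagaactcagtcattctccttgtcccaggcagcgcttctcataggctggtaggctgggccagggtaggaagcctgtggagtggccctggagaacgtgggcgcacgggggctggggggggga
Cemip, chr7:84086506-84086755, minus strand: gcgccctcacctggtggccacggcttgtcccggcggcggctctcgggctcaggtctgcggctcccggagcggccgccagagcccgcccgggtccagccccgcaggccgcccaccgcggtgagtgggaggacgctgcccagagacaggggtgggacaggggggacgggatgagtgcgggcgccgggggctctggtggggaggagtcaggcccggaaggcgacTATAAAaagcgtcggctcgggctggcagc

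The printed Hapln1 letters are the opposite strand of AGTTCA, 136 bases before the start. Of the 7 stretches, the letters TATAAA stood in that of Cemip only, beginning 29 bases before the start, against 12.4% of all 32851 stretches in the table. A half-site stood in those of Hapln1 and Has1, against 38.6% of all. Direct repeats of half-sites with 3 bases between them, the classical arrangement for the vitamin D receptor with its RXR partner, were in none of the 7 and in 0.0396% of all. The GC content was 75.2% for Cemip, against 54.4% for Hapln1, 56.4% for Cd44 and 62.4% for Vcan. By gene order in the RefSeq table Hapln1 and Vcan are adjacent on chromosome 13, and Hyal2 and Hyal1 are adjacent on chromosome 9. A match is only a match of letters, and binding was not measured.

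With 25(OH)D for 24 h, 5 of the 7 tested hyaluronan genes changed against control at an adjusted p under 0.05 (edgeR's quasi-likelihood test, Benjamini-Hochberg over all genes). Has2, Hapln1, Vcan and Cd44 fell and Cemip rose. The share of all tested genes that passed in this comparison was 8.68%, with 3.93% lower and 4.76% higher. The median log2 difference was −1.02 over the 7 and −0.05 over all genes tested. The genes were chosen with earlier results of these data known, so the contrast with all genes is only a description. In bulk RNA, fewer cells that make a transcript and less of it per cell cannot be told apart. Without the library of highest library ratio in each group, 4 of the 7 and 7.47% of all genes were called. The libraries of the groups did not overlap, all lower with 25(OH)D, for 4 of the 7 and for 10.8% of all genes, and, all higher, for 1 of the 7 and for 11.1% of all genes.

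**Figure D1:**
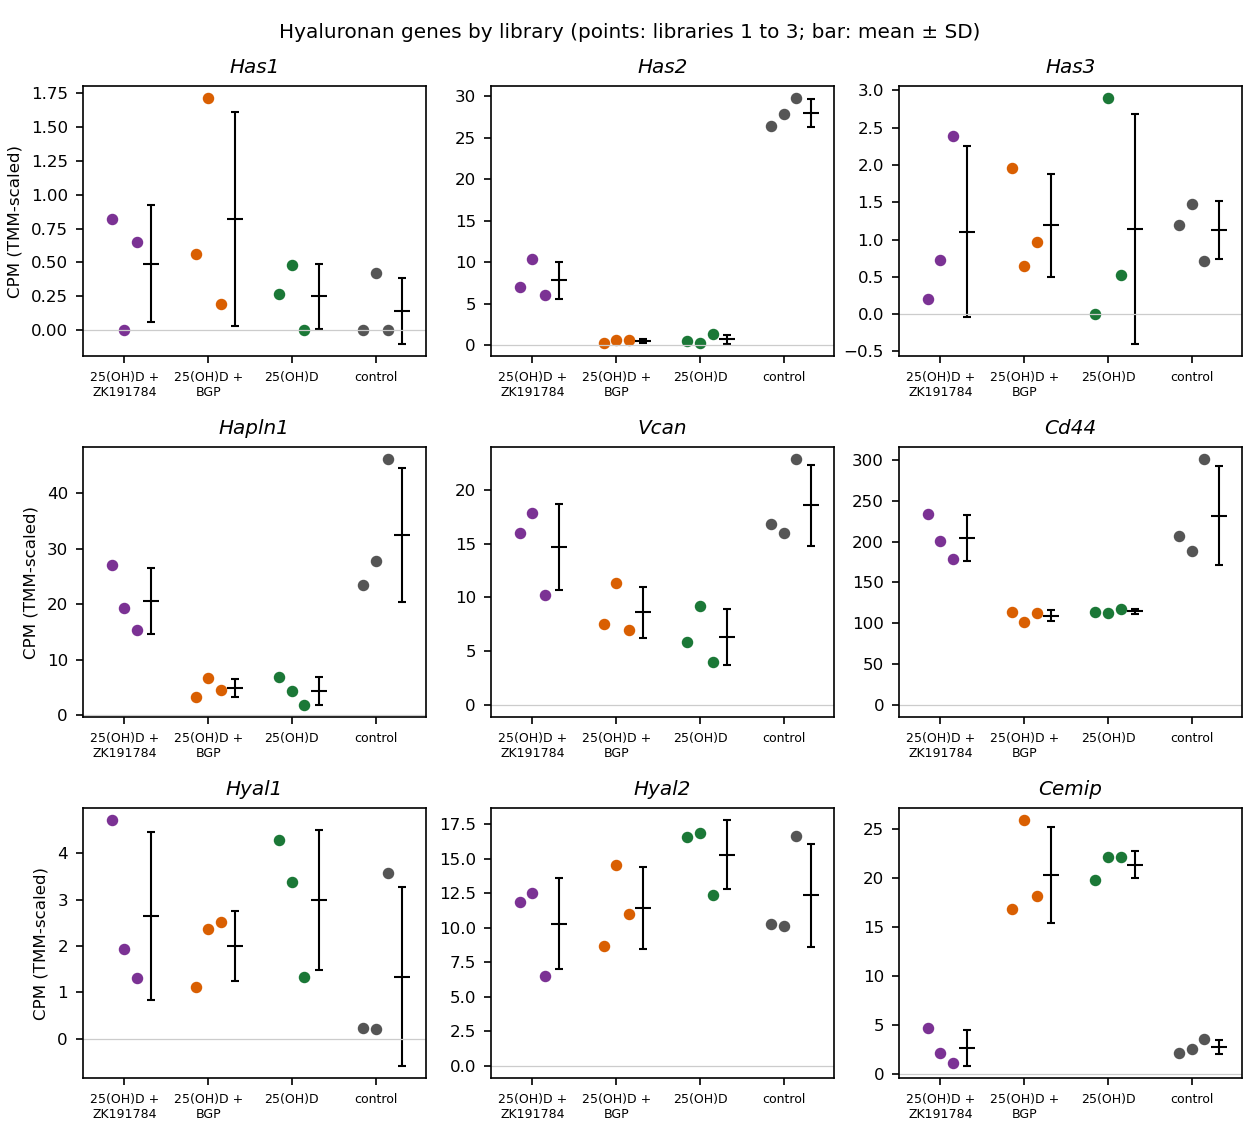
TMM-scaled CPM (vertical axes, linear, each gene on its own scale) of the 9 hyaluronan genes in the 3 libraries of each group (points), with the mean and SD beside them. Has2, Hapln1, Vcan and Cd44 are lower and Cemip is higher in all 3 libraries with 25(OH)D than in control, and with ZK191784 these genes lie nearer to control.

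Among the synthases, Has2 carried the change. Has2, the synthase that mouse embryos need for heart development, was counted 2, 1 and 5 times with 25(OH)D, against 110, 132 and 125 in the control libraries. On the CPM scale these levels were 0.53, 0.24 and 1.32 with 25(OH)D, and 26.4, 27.8 and 29.7 in control. The control libraries lay close together, and every 25(OH)D library was far below them. Has2 fell by 5.29 on the log2 scale (SE 0.44, adjusted p = 8.29e-06, edgeR), the eighth lowest value of the 14394 genes. Leaving out 25(OH)D library 3, the one with 5 counts, made the log2 difference −6.09. Has2os, the antisense transcript that overlaps Has2, was too rare for the test and had 1, 1 and 1 counts with 25(OH)D, against 6, 13 and 7 in control. The strand setting of the counting is not given, so reads of the overlapping pair cannot be told apart.

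Has1 and Has3 were near the limit of detection. Has1, another of the synthases, had 1, 2 and 0 counts with 25(OH)D, against 0, 2 and 0 in control. Has3, which makes shorter hyaluronan chains, had 0, 12 and 2 counts with 25(OH)D, against 5, 7 and 3 in control. Neither differed beyond the spread of its libraries (exact 2-sided permutation tests over CPM, p = 0.7 for Has1 and p = 1 for Has3, n = 3 each). With 3 against 3 libraries that test cannot go below 0.1 for a difference of any size.

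The matrix partners of hyaluronan fell as well. Hapln1, the link protein that locks proteoglycans onto hyaluronan, stood at 6.95, 4.34 and 1.85 CPM in the 25(OH)D libraries, against 23.5, 27.8 and 46.2 CPM in the control libraries. The groups did not overlap, although each spread widely. Hapln1 fell by 2.88 on the log2 scale (SE 0.44, adjusted p = 0.000995, edgeR). Its highest library was the one of highest ratio in all 4 groups. With the ratio as a covariate the Hapln1 difference was −3.12 (SE 0.25).

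Vcan encodes versican, a chondroitin sulfate proteoglycan that binds hyaluronan through its link modules. Its levels were 5.88, 9.16 and 3.96 CPM with 25(OH)D, against 16.8, 16.0 and 22.8 CPM in control. All 25(OH)D libraries were lower than all control libraries. Vcan fell by 1.54 on the log2 scale (SE 0.35, adjusted p = 0.0138, edgeR). That call was lost without 25(OH)D library 1 (adjusted p = 0.0604) and without the 4 libraries of highest ratio (0.0885).

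Cd44, the main hyaluronan receptor at the cell surface and also a receptor for osteopontin, had the most counts of the 9 genes, 1336 summed over the 25(OH)D libraries and 3018 over the control libraries. It stood at 113, 112 and 118 CPM with 25(OH)D, against 206, 188 and 301 CPM in control. The 25(OH)D libraries lay within a few CPM of each other, while control library 3 was above the other control libraries. Cd44 fell by 1.02 on the log2 scale (SE 0.18, adjusted p = 0.00267, edgeR), and without control library 3 the difference was −0.77 (adjusted p = 0.00447). Counts at transcript 3′ ends do not separate the splice forms of Cd44 or Vcan. In the RefSeq table Hapln1, Vcan, Cd44 and Cemip each overlap a pseudogene or noncoding gene, whose reads could be counted with theirs.

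Cemip, also called HYBID, encodes a protein that cells need to take up and depolymerize hyaluronan, as shown in human skin fibroblasts. Of the 3 breakdown genes among the 9, Cemip alone passed. It had 74, 92 and 84 counts with 25(OH)D, against 9, 12 and 15 in control. Its levels were 19.8, 22.2 and 22.2 CPM with 25(OH)D, and 2.16, 2.53 and 3.57 CPM in control. Each group was tight and they did not overlap. Cemip rose 7.71-fold (log2 2.95 ± 0.41 SE, adjusted p = 0.000519, edgeR), and the call held in all 14 alternatives tried, with log2 values from 2.80 to 3.25.

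The hyaluronidases did not pass. Hyal2, anchored at the cell surface, stood at 15.3 ± 2.50 CPM with 25(OH)D and 12.4 ± 3.72 CPM in control (SD, n = 3 each), a log2 difference of 0.31 with a 95% interval from −0.38 to 1.00. Hyal1, the lysosomal hyaluronidase, had 16, 14 and 5 counts with 25(OH)D, against 1, 1 and 15 in control. The groups overlapped only through control library 3, the control library of highest ratio. The Hyal1 log2 difference was 1.16 ± 0.88 (SE, adjusted p = 0.533, edgeR), and without control library 3 it was 3.58 (adjusted p = 0.0341), a value that rests on 2 counts in control. In the RefSeq table Hyal1 overlaps Hyal3 and Naa80, so its counts may include reads of these genes.

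**Figure D2:**
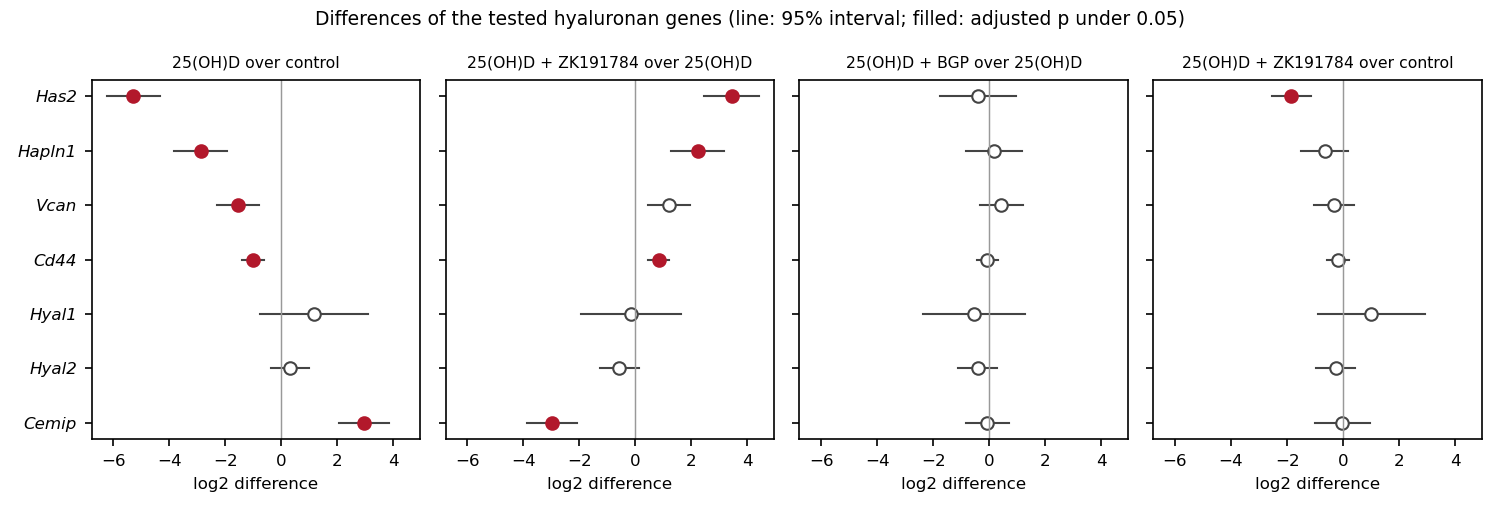
Log2 differences (horizontal axes) of the 7 tested hyaluronan genes in 4 comparisons, with 95% intervals as lines and filled points for genes called at an adjusted p under 0.05. Has2, Hapln1, Vcan and Cd44 lie left of 0 and Cemip right of 0 for 25(OH)D over control, and with BGP over 25(OH)D all 7 intervals include 0.

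With ZK191784 added to 25(OH)D, 4 of the 7 tested genes changed against 25(OH)D alone. Has2, Hapln1 and Cd44 rose and Cemip fell. In this comparison 3.53% of all tested genes passed, 1.42% higher and 2.11% lower. The groups did not overlap, all higher with ZK191784, for 4 of the 7 and for 8.57% of all genes, and, all lower, for 1 of the 7 and for 9.02% of all genes. The comparison shares its 25(OH)D libraries with the one before, so directions in the pair are not independent of each other. With the 4 libraries of highest ratio left out, 4 of the 7 and 2.76% of all genes were called.

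Has2 had 34, 43 and 28 counts with ZK191784, against 2, 1 and 5 with 25(OH)D alone. Its levels of 6.96, 10.4 and 6.09 CPM with ZK191784 were all above the 0.53, 0.24 and 1.32 CPM with 25(OH)D alone. Has2 rose 10.9-fold (log2 3.44 ± 0.45 SE, adjusted p = 0.000857, edgeR), and without 25(OH)D library 3 the log2 difference was 4.25. Has2os had 4, 5 and 2 counts with ZK191784, against 1, 1 and 1 with 25(OH)D alone. Has1 (4, 0 and 3 counts against 1, 2 and 0) and Has3 (1, 3 and 11 against 0, 12 and 2) overlapped between the groups (exact permutation p = 0.5 and p = 1).

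Hapln1 stood at 27.0, 19.3 and 15.4 CPM with ZK191784, against 6.95, 4.34 and 1.85 CPM with 25(OH)D alone. It rose 4.68-fold (log2 2.23 ± 0.44 SE, adjusted p = 0.0125, edgeR). The call was lost without 25(OH)D library 2 (adjusted p = 0.0657) or ZK191784 library 1 (0.0518), at log2 values of 2.23 and 1.99. Vcan had levels of 16.0, 17.8 and 10.2 CPM with ZK191784, against 5.88, 9.16 and 3.96 CPM with 25(OH)D alone, and the groups did not overlap. Its log2 difference of 1.20 ± 0.35 did not pass (adjusted p = 0.0950). DESeq2 (adjusted p = 0.0234), a fit with no filter on low counts (0.0402) and the ratio as a covariate (0.00131) called Vcan higher, and over all alternatives its adjusted p ran up to 0.360.

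Cd44 stood at 234, 201 and 178 CPM with ZK191784, against 113, 112 and 118 CPM with 25(OH)D alone. It rose 1.78-fold (log2 0.84 ± 0.18 SE, adjusted p = 0.0195, edgeR). All ZK191784 libraries were higher, but the call did not hold without 25(OH)D library 1 (adjusted p = 0.0765), 2 (0.0900) or 3 (0.0519) or without ZK191784 library 1 (0.0991) or 2 (0.0784). The log2 difference stayed between 0.73 and 0.93 in these fits and in that without ZK191784 library 3.

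Cemip had 23, 9 and 5 counts with ZK191784, against 74, 92 and 84 with 25(OH)D alone. The Cemip log2 difference was −2.98 (SE 0.41, adjusted p = 0.00119, edgeR), and the groups lay far apart. Without ZK191784 library 1, the highest of its group and the one of highest ratio, the log2 difference was −3.70. Hyal2 stood at 10.3 ± 3.30 CPM with ZK191784 and 15.3 ± 2.50 CPM with 25(OH)D alone (SD, n = 3 each), and Hyal1 at 2.65 ± 1.81 and 2.99 ± 1.52 CPM. Neither passed (adjusted p = 0.592 and 0.982, edgeR).

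Set against control, the cells given 25(OH)D with ZK191784 differed in 1 of the 7 tested genes, where 0.723% of all genes passed (0.215% lower, 0.507% higher). Has2 remained lower, at 6.96, 10.4 and 6.09 CPM with ZK191784 and 26.4, 27.8 and 29.7 CPM in control. The Has2 log2 difference was −1.84 (SE 0.33, adjusted p = 0.0218, edgeR). The groups did not overlap, all lower with ZK191784, for 1 of the 7 (5.86% of all genes) and, all higher, for 0 of the 7 (5.91%). However, the Has2 call was lost when any of the 6 libraries was left out, with adjusted p between 0.0509 and 0.140 and log2 differences between −2.09 and −1.69. For the other 6 tested genes the 95% intervals of the log2 difference from control included 0. They ran from −1.50 to 0.18 for Hapln1, from −1.05 to 0.37 for Vcan, from −0.56 to 0.20 for Cd44, from −1.02 to 0.94 for Cemip, from −0.91 to 2.91 for Hyal1 and from −0.96 to 0.44 for Hyal2. Without control library 3 the Hyal1 difference was 3.43 (SE 0.94, adjusted p = 0.167). With the ratio as a covariate Hapln1 also passed, lower (log2 −0.79, adjusted p = 0.00876). Whether Has2 differed from the other genes in how far it returned was not tested.

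With a further 4 mM BGP on top of 25(OH)D, 0 of the 7 tested genes passed against 25(OH)D alone, and 0.00% of all genes passed (edgeR and DESeq2 both called 0 genes, with 268 of 14394 at an unadjusted p under 0.05, of which 0 were among the 7). The groups did not overlap for 0 of the 7, against 2.38% of all genes all higher and 3.66% all lower with BGP. Has2 had 1, 3 and 3 counts with BGP, against 2, 1 and 5 with 25(OH)D alone. Cd44 stood at 114, 102 and 112 CPM with BGP, against 113, 112 and 118 CPM with 25(OH)D alone. The 95% interval of the Cd44 log2 difference was −0.45 to 0.32, the narrowest of the 7. Cemip stood at 16.8, 25.9 and 18.1 CPM with BGP, against 19.8, 22.2 and 22.2 CPM with 25(OH)D alone (95% interval −0.84 to 0.69). For Has2, with 7 counts over the BGP libraries and 8 over the 25(OH)D libraries, the interval was −1.75 to 0.96. Has1 had 2, 8 and 1 counts with BGP, against 1, 2 and 0 with 25(OH)D alone (exact permutation p = 0.3), and Has3 had 7, 3 and 5, against 0, 12 and 2 (exact permutation p = 0.9).

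Against control, the cells with 25(OH)D and BGP had 4 of the 7 genes called, where 8.25% of all genes passed (4.35% lower, 3.90% higher). The groups did not overlap, all lower, for 4 of the 7 (11.2% of all genes) and, all higher, for 1 of the 7 (9.73%). Has2 fell by 5.68 on the log2 scale (SE 0.45), Hapln1 fell by 2.71 (SE 0.43), Cd44 fell by 1.08 (SE 0.18) and Cemip rose by 2.87 ± 0.41 (adjusted p = 5.86e-06, 0.00139, 0.00181 and 0.000639, edgeR). Vcan stood at 8.62 ± 2.38 CPM with BGP and 18.5 ± 3.74 CPM in control (SD, n = 3 each), a log2 difference of −1.10 ± 0.34 that did not pass (adjusted p = 0.0700). DESeq2 (0.0199) and the ratio as a covariate (0.000322) called it lower. This comparison uses the same control libraries as that of 25(OH)D alone.

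By mean level, Hapln1, Vcan and Cd44 were lowest in the BGP and 25(OH)D groups, whose libraries overlapped. ZK191784 and then control followed, and these also overlapped. The ZK191784 and BGP libraries overlapped for Vcan and not for Hapln1 or Cd44. Cemip had its low levels with ZK191784 (2.66 ± 1.86 CPM) and in control (2.75 ± 0.73 CPM) and its high levels with BGP (20.3 ± 4.91 CPM) and 25(OH)D (21.4 ± 1.38 CPM), and the libraries overlapped within each pair. Has2 made 3 steps, with BGP (0.50 ± 0.19 CPM) and 25(OH)D (0.70 ± 0.56 CPM) overlapping at the bottom, then ZK191784 at 7.80 ± 2.26 CPM and control at 28.0 ± 1.69 CPM (SD, n = 3 each).

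**Figure D3:**
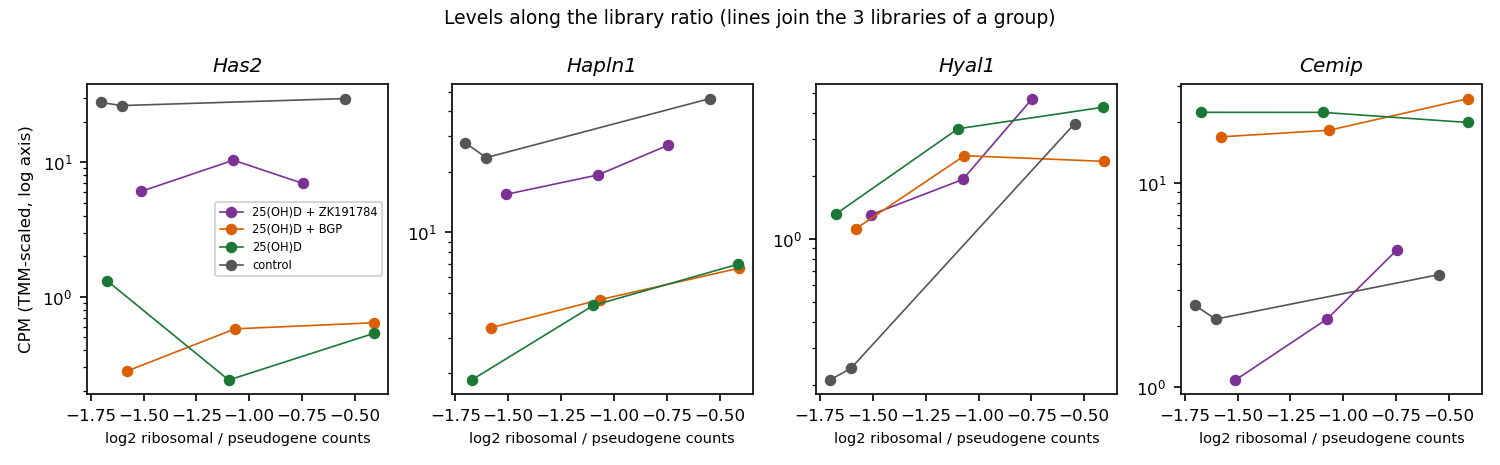
TMM-scaled CPM (vertical axes, log scale) of Has2, Hapln1, Hyal1 and Cemip against the library ratio (log2 of ribosomal protein over pseudogene and Gm-numbered counts) (horizontal axes), with lines joining the 3 libraries of a group. Hapln1 is highest in the library of highest ratio in all 4 groups, Hyal1 and Cemip in 3 of the 4 and Has2 in 2 of the 4.

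The genes whose levels ran most like each member over the 12 libraries were named by Pearson's r of log2 CPM among 11305 other genes. These r values describe libraries that share 4 treatments and the library ratio, and carry no p. For Has2 they were Thbs2, which encodes the matricellular protein thrombospondin 2 (r = 0.986), Phldb2 (0.986) and Slc44a1 (0.982). For Hapln1 they were the matricellular gene Ccn4 (0.991), Cgref1 (0.991) and Nrep (0.984). For Vcan they were Tnfrsf11b, which encodes osteoprotegerin (0.963), Cgref1 (0.941) and the collagen gene Col13a1 (0.936). For Cd44 they were Ctnnbip1 (0.972), the transcription factor gene Runx3 (0.971) and Irx3 (0.965). For Cemip they were Lhfpl2 (0.975), the spermine oxidase gene Smox (0.973) and Pla2g12a (0.970). For Hyal1 the list began with Fance (0.975) and for Hyal2 with BC024978 (0.916). Some names depended on the prior count of 2 added before the log. At a prior count of 0.5, Specc1 replaced Slc44a1 for Has2, and Col8a2 replaced Nrep for Hapln1. Cd59a replaced Col13a1 for Vcan, and Osbpl5 came first for Hyal1.

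The wider pathway was read from 4 lists of other genes. In the supply of UDP-sugars, the building blocks of hyaluronan, 0 of 8 tested genes passed in any of the 5 comparisons (edgeR), with 1 of the 8 at an unadjusted p under 0.05 for 25(OH)D against control and 0 in the other comparisons. DESeq2 also called 0 in each. By edgeR, between 0.00% and 8.68% of all tested genes passed in these comparisons. The median log2 difference of these genes with 25(OH)D was 0.16, against −0.05 over all genes. Ugdh, which makes UDP-glucuronic acid, averaged 27.0 CPM with 25(OH)D and 24.4 CPM in control (log2 0.15 ± 0.53). Its libraries stood at 42.0, 26.3 and 12.7 CPM with 25(OH)D and at 16.5, 12.2 and 44.5 CPM in control. Uap1 makes UDP-N-acetylglucosamine. It stood at 94.4, 31.1 and 12.1 CPM in the 25(OH)D libraries and 14.6, 9.91 and 67.3 CPM in the control libraries. Both genes moved with the library ratio, and for both the highest library was the one of highest ratio in all 4 groups.

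Among 10 tested genes of other hyaluronan-binding proteins, 1 fell with 25(OH)D and 0 rose, where 3.93% of all tested genes fell and 4.76% rose. The gene that fell was Habp4, whose intracellular product was first found by hyaluronan binding and is known for binding RNA. It stood at 72.5, 57.9 and 45.7 CPM with 25(OH)D, against 121, 81.8 and 187 CPM in control, and fell by 1.15 on the log2 scale (SE 0.28, adjusted p = 0.0197, edgeR). Leaving out control library 3 ended the Habp4 call (adjusted p = 0.0581), as did leaving out the second (0.0846) or the third (0.0679) library with 25(OH)D and fitting the 2 groups alone (0.0879). It also fell with BGP against control (−1.17, SE 0.27, adjusted p = 0.0175), a call lost without control library 3 (0.0556), BGP library 1 (0.0657), BGP library 2 (0.0688) or the 4 libraries of highest ratio (0.103) and in the 2 groups alone (0.0774). Aggrecan (Acan), the other large proteoglycan of link-protein aggregates, summed to 6 counts with 25(OH)D and 4 in control. Ptx3, which crosslinks hyaluronan with heavy chains of inter-alpha-inhibitor, did not pass (log2 1.16 ± 0.92), and its highest library was the one of highest ratio in all 4 groups. With the ratio as a covariate Ptx3 was called higher, in a fit that called 19.8% of all genes.

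Of 5 tested genes of other hyaluronan breakdown, 0 passed with 25(OH)D against control (edgeR, with 1 at an unadjusted p under 0.05, and 0 by DESeq2). The share of all tested genes that passed there was 8.68% (edgeR). Cemip2, formerly Tmem2, a cell-surface relative of Cemip, stood at 117, 84.6 and 73.2 CPM with 25(OH)D, against 123, 126 and 239 CPM in control, a log2 difference of −0.83 ± 0.28 (adjusted p = 0.103). With BGP it stood at 65.9, 85.6 and 78.7 CPM and was called lower than control (log2 −1.08, SE 0.28, adjusted p = 0.0334), but the call was lost without control library 3 (0.102), BGP library 1 (0.112), 2 (0.0688) or 3 (0.0991) and in the 2 groups alone (0.0859). With the ratio as a covariate Cemip2 was called in both comparisons and, higher, with ZK191784 over 25(OH)D alone (log2 0.71). A fit with no filter on low counts made the same Cemip2 calls.

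Of 11 tested genes for proteases that cut versican or CD44 and for the proteins that tie CD44 to actin, 0 passed in the 5 comparisons (edgeR), with 4 at an unadjusted p under 0.05 for 25(OH)D against control. Between 0.00% and 8.68% of all tested genes passed in these comparisons. The versican-cutting protease gene Adamts9 came nearest with 25(OH)D, at 9.09, 7.47 and 5.55 CPM, against 0.96, 3.37 and 2.62 CPM in control (log2 1.65 ± 0.49, adjusted p = 0.0592), and DESeq2 called Adamts9 alone of the 11. Adamts1, another such protease, stood at 170, 93.3 and 65.0 CPM with 25(OH)D, against 148, 148 and 517 CPM in control (log2 −1.31 ± 0.57, adjusted p = 0.222). Msn, which encodes the CD44 linker moesin, stood at 402, 464 and 667 CPM with 25(OH)D, against 1094, 930 and 671 CPM in control (log2 −0.81 ± 0.26, adjusted p = 0.0795). Msn was called lower with no filter on low counts, without control library 3, without 25(OH)D library 3 and without the 4 libraries of highest ratio. The fit with no filter on low counts also called Adamts9 higher. With the ratio as a covariate 5 of the 11 passed for 25(OH)D against control, 2 higher and 3 lower, where 19.8% of all genes passed. Of the genes named from the 4 lists, those other than Habp4 and Cemip2 were chosen after their values were seen. With ZK191784 over 25(OH)D alone, 0 of the 34 genes of the lists passed (edgeR and DESeq2), with 3 at an unadjusted p under 0.05. The share of all tested genes that passed there was 3.53% by edgeR and 5.54% by DESeq2.

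**Figure D4:**
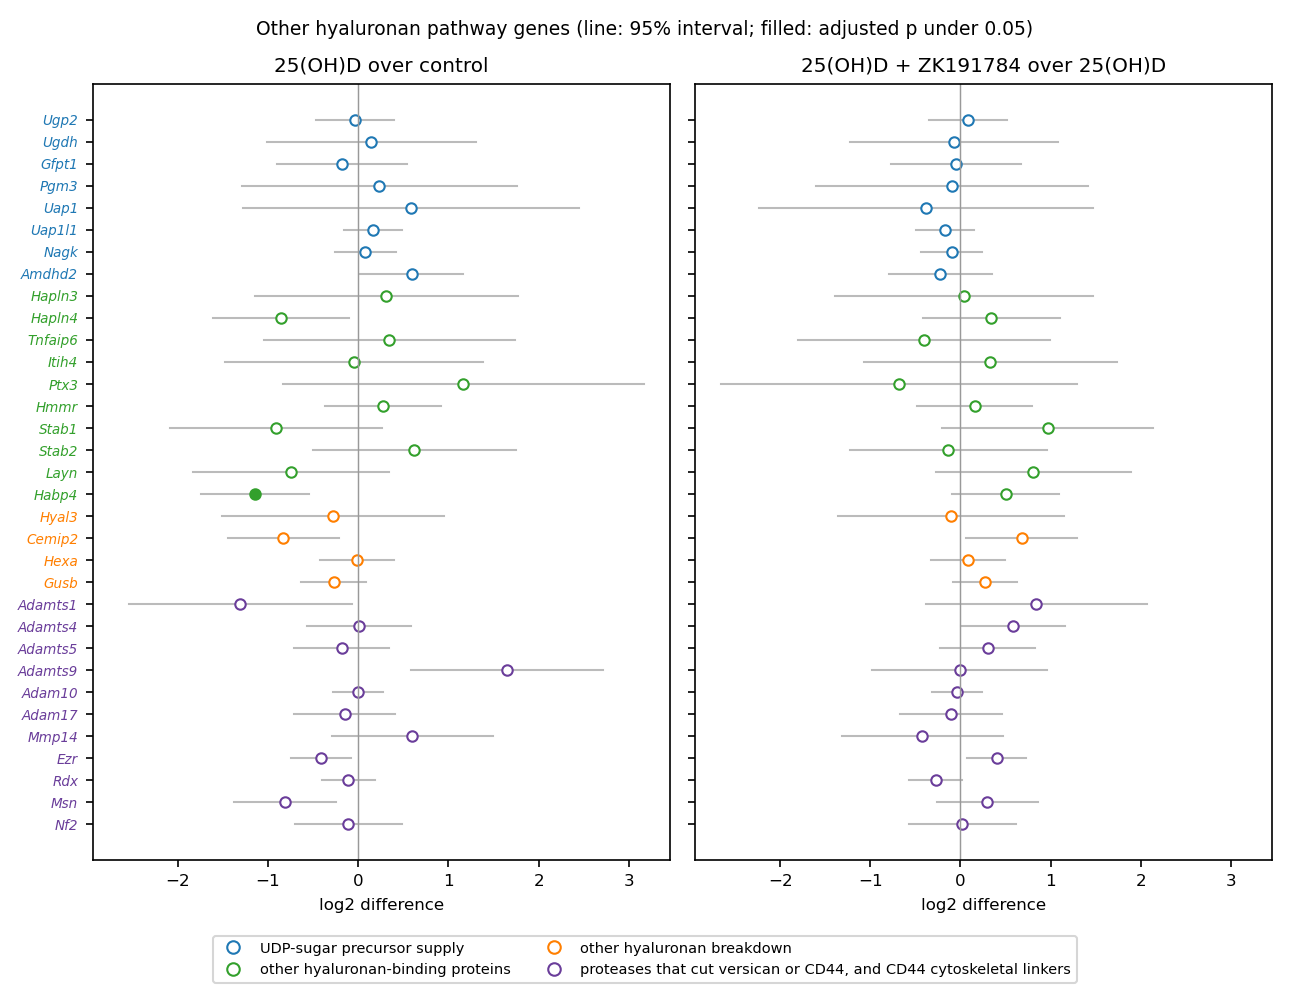
Log2 differences (horizontal axes) of 33 of the 34 other hyaluronan pathway genes tested, coloured by list, with 95% intervals as lines and filled points for genes called at an adjusted p under 0.05. With 25(OH)D over control Habp4 is the only filled point, and with ZK191784 over 25(OH)D there is none.

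Markers of cartilage cells were examined beside Hapln1 and Vcan, since both genes are also active in cartilage. Of 6 such markers, 5 had counts with ZK191784, 5 with BGP, 6 with 25(OH)D and 6 in control. Their summed level ran from 87.8 to 182 CPM with ZK191784, from 64.2 to 119 CPM with BGP, from 67.6 to 152 CPM with 25(OH)D and from 100 to 244 CPM in control. Unlike Cemip, Col2a1, the type II collagen gene, moved in the same direction as Has2, Hapln1, Vcan and Cd44 with 25(OH)D and with ZK191784 added. It stood at 26.8, 17.6 and 15.2 CPM with ZK191784, at 1.12, 2.57 and 1.93 CPM with BGP and at 1.87, 0.96 and 0.79 CPM with 25(OH)D, against 17.0, 23.0 and 55.0 CPM in control. It fell by 4.68 with 25(OH)D on the log2 scale (adjusted p = 0.000131, edgeR) and was 4.02 higher with ZK191784 than with 25(OH)D alone (adjusted p = 0.00118). Most of the cartilage sum was Sox9, the main transcription factor of cartilage, at means of 109 CPM with 25(OH)D and 122 CPM in control. Sox9 differed by −0.16 with 25(OH)D (adjusted p = 0.862, edgeR). Matn1 was at 0 with ZK191784 and with BGP, and Acan and Col10a1 had at most 7 counts in any group. The part of cartilage-like cells in the Hapln1 and Vcan results was not tested. Of 6 osteocyte markers, set beside Cd44, all had counts in each group, and their summed level ran from 87.0 to 117 CPM with ZK191784, from 75.6 to 77.9 CPM with BGP, from 52.0 to 66.1 CPM with 25(OH)D and from 111 to 150 CPM in control. Most of the osteocyte sum was Pdpn, at means of 54.1 CPM with 25(OH)D and 99.6 CPM in control. Phex, Mepe and Pdpn fell with 25(OH)D (log2 −2.97, −4.58 and −0.88, adjusted p = 0.00143, 0.00967 and 0.00509, edgeR), while Dmp1 (0.29) and Sost (−1.47) did not pass. With BGP over control Phex, Mepe and Pdpn also fell, whereas Dmp1 rose (log2 2.01, adjusted p = 0.0187, edgeR). Fgf23, too rare for the test, had 1, 3 and 3 counts with 25(OH)D, against 0, 1 and 0 in control. Their part in the Cd44 result was not tested either. Summed osteoblast markers ran from 71518 to 79479 CPM with 25(OH)D and from 128182 to 143111 CPM in control. The sum joins opposite directions, since 7 of the 10 fell with 25(OH)D and 2 rose (edgeR). Sparc averaged 12553 CPM with 25(OH)D and 71819 CPM in control, whereas Spp1, which encodes osteopontin, averaged 51551 CPM with 25(OH)D and 3395 CPM in control. Summed macrophage markers ran from 186 to 357 CPM with 25(OH)D and from 208 to 459 CPM in control, and summed endothelial markers from 17.4 to 43.8 and from 26.6 to 64.0 CPM, with Cdh5 at 0 throughout. Most of the macrophage sum was Ptprc, at means of 182 CPM with 25(OH)D and 242 CPM in control. Cd68 averaged 36.5 CPM with 25(OH)D and 47.8 CPM in control, and Tyrobp averaged 30.3 and 39.7 CPM. Csf1r, Adgre1 and Cd14 averaged at most 3.64 CPM in these groups. Most of the endothelial sum was Pecam1, at means of 23.4 and 36.3 CPM. Summed adipocyte markers ran from 1.06 to 5.35 CPM with 25(OH)D and from 7.91 to 9.75 CPM in control. Most of the control sum was Fabp4, which averaged 0.88 CPM with 25(OH)D and 5.86 CPM in control (adjusted p = 0.0222, edgeR). The other 5 adipocyte markers were too rare for the test. Adipoq alone of these had more counts with 25(OH)D (8) than in control (1). The part of these cell types in the results was not tested.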

How the data were processed

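RNA of 12 libraries (4 groups of 3) was sequenced from transcript 3′ ends with the QuantSeq kit, per the labels' protocols. The authors deposited raw read counts per gene. Per the submitters' processing notes, tools included STAR 2.7.9a, featureCounts (Subread 2.0.3) and DESeq2 1.38.2, with build mm39. The sources used here give neither the strand setting nor the annotation.

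From these counts, edgeR 4.0.16 (R 4.3.3) fitted its quasi-likelihood model with group as the only term to all 12 libraries, after filtering for low counts (minimum count 10, minimum total 15) and TMM scaling. SE is the log2 difference over the root of its F statistic, p-values were Benjamini-Hochberg adjusted over 14394 genes, and calls used 0.05. Has1 and Has3 were compared by exact permutation tests. The steps were tested on simulated counts, drawn independently for each gene and library. These held no direction like the library ratio, so they cannot show how calls behave under it. Totals of 3318723 to 5170980 counts limit rare genes most. Intervals cover the spread between libraries.

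Members and lists were chosen with earlier results of these data known. From each list, up to 4 called genes with the smallest p per comparison were to be named, and for each tested member the 3 genes of highest Pearson's r (prior count 2). Replicate numbers did not establish a pairing of the libraries, and the main fit had no block. Alternatives were DESeq2 1.42.0, RLE scaling, no filter, each library left out, a fit of only the 2 groups compared, a replicate block and a filter at 2 CPM in 3 libraries. The library ratio as a covariate, and leaving out the 4 libraries of highest ratio, were added after seeing the data. For 1 list gene, values are not reported here.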

Additional observations from a re-analysis of the deposited data

How the results depend on the processing

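Of 627 recomputed log2 differences of the 7 tested members, Habp4 and Cemip2, 555 kept their direction and their side of the threshold, 34 lost the call, 13 gained it and 25 changed sign, of which 0 were called on either side. All genes called numbered 1250 for 25(OH)D over control, 508 for ZK191784 over 25(OH)D, 0 for BGP over 25(OH)D, 104 for ZK191784 over control and 1187 for BGP over control. DESeq2 called 797 for ZK191784 over 25(OH)D and 265 for ZK191784 over control, where no filter on low counts gave 220. The 2 groups alone gave 763 for 25(OH)D over control, 42 for ZK191784 over control and 712 for BGP over control. Taking the library ratio as covariate, counts in the order above were 2843, 1632, 6, 670 and 2681, and 2 members (Has2 and Hapln1) were called for ZK191784 over control. Without the 4 libraries of highest ratio, 0 members were called there. Causes of these shifts were not tested.

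The fit with the replicate block gave 334 genes for ZK191784 over 25(OH)D, 56 for ZK191784 over control and 0 members for ZK191784 over control. The block also ended the calls of Habp4 for 25(OH)D (adjusted p = 0.0593) and BGP (0.0528) over control and of Cemip2 for BGP over control (0.0897). The numbers do not establish a pairing: 4 of 18 same-numbered pairs had deviations correlated over 0.1 (−0.706 to 0.612), and 3 of 12 libraries correlated best with their own number.

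Leaving out 1 library at a time gave 813 to 1266 genes for 25(OH)D over control (fewest without 25(OH)D library 2), 269 to 428 for ZK191784 over 25(OH)D, 34 to 119 for ZK191784 over control and 794 to 1143 for BGP over control. The count fell by over 1.5 times without any library but 25(OH)D library 3 for ZK191784 over 25(OH)D, and without any but control library 3 for ZK191784 over control. Members called ran from 2 to 4 for ZK191784 over 25(OH)D and were 0 in each such fit for ZK191784 over control.

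Differences that changed sign were all uncalled. For BGP over 25(OH)D, Habp4 was 0.0074 in the 2 groups alone and 0.21 without the 4 libraries, and Cd44 was 0.0084 without the 4. With 1 library left out, Habp4 ran from −0.18 to 0.15, Has2 from −0.81 to 0.41, Hapln1 from −0.19 to 0.65 and Cemip from −0.28 to 0.043. For ZK191784 over control, Cemip2 was 0.014 without the 4 libraries, and with 1 left out Cemip2 ran from −0.38 to 0.25, Cd44 from −0.32 to 0.076, Hyal2 from −0.42 to 0.036 and Cemip from −0.75 to 0.34. For BGP over control, Hyal2 was 0.020 without the 4 libraries and ran from −0.29 to 0.18. For ZK191784 over 25(OH)D, Hyal1 ran from −0.87 to 0.17.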
